A study of Mus musculus with 4 samples.

Results

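The 29 genes described here encode enzymes and regulators of cholesterol and fatty acid synthesis, and they were taken by name from a fixed list. That list was chosen with earlier results of these data known. All 29 were measured, out of 18193 genes that the array annotation ties to a single symbol. Among them, 17 encode sterol enzymes (6 of the mevalonate steps and 11 of the steps from squalene synthesis onward), 5 encode regulators or carriers of sterols, and 7 encode enzymes of fatty acid synthesis. A probe set is a group of short probes for one transcript, and where a gene had several, the one with the highest mean over the arrays stood for it.

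RNA came from the epithelium of the gastric corpus, the acid-secreting region of the stomach, of wild-type mice aged 6 weeks. The animals were of C57BL/6, BALB/c and FVB/N background, and the labels do not say which strain lay on which array. The groups were vehicle (10% ethanol in 90% sunflower seed oil) at 2.5 days, and tamoxifen in that vehicle, given into the peritoneum at 5 mg per 20 g of body weight, after 12 hours, after 2.5 days or after 4.5 days. Injections were given on 1 or 3 days, without a statement of which array had which, and the treatment was meant to induce spasmolytic polypeptide-expressing metaplasia. Every group was 1 array of RNA pooled from 3 mice, so no spread between mice, no error and no p-value can be given, and the single vehicle array served all 3 comparisons with tamoxifen.

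Cholesterol is made from acetyl-CoA through mevalonate, isoprenoid diphosphates and squalene, which is closed to lanosterol and then trimmed to cholesterol. The transcription factor SREBP2, the product of Srebf2, activates most genes of this pathway when sterols in the endoplasmic reticulum are low, whereas SREBP1, the product of Srebf1, acts mainly on fatty acid synthesis. INSIG proteins hold the SREBP precursors back when sterols are plentiful. Tamoxifen is known to bind the sterol isomerase encoded by Ebp, one of the late enzymes of the pathway.

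RefSeq promoter sequences (GRCm38.p6, 250 bases before to 50 after a transcript start, 300 in all) were matched for 23 of the 29 genes, with 31 start sites. Fdps, Fdft1, Sqle, Stard4, Scd1 and Scd2 were not among those matched. The search also left out a chromosome, and whether that bears on any of these genes was not checked. The sequences below are shown because Pmvk and Tm7sf2 were the sterol enzymes with the highest and lowest difference from vehicle at 2.5 days, and Elovl6 had the highest difference among fatty acid synthesis genes. Ebp, Idi1 and Hmgcs1 were added after their values had been seen, Ebp as the tamoxifen-binding enzyme, Idi1 as a gene at least 2-fold above vehicle at 2 times, and Hmgcs1 as the sterol enzyme with a match to the sterol element core. Capitals mark matches on either strand to CCAAT (the core bound by NF-Y, ATTGG on the other strand), to GGGCGG (the core bound by Sp1, CCGCCC on the other strand) and to CACNCCAC (a core of sterol regulatory elements). CACGTG, the E-box, was searched as well and has no match in these 6 sequences, and no matches of different motifs overlapped in them.
Pmvk, chr3:89454291-89454590, plus strand: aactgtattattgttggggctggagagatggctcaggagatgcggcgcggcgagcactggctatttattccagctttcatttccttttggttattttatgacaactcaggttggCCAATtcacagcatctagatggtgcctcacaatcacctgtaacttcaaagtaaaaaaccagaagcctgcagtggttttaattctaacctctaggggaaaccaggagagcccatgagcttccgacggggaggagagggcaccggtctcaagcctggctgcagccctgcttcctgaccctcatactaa
Idi1, chr13:8885356-8885655, plus strand: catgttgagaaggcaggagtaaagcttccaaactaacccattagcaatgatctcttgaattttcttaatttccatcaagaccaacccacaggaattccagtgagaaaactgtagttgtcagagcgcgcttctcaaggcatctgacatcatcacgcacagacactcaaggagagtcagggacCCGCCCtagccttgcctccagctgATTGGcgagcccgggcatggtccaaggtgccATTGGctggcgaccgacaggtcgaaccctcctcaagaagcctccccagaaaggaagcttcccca
Hmgcs1, chr13:119690101-119690400, plus strand: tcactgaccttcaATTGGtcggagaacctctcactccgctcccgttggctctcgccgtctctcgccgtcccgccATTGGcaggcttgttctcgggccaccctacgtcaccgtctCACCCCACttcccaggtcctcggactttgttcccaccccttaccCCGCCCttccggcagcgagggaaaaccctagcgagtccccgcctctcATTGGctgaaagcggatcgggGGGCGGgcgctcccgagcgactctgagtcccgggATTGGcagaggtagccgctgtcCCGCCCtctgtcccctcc
Tm7sf2, chr19:6067801-6068100, minus strand: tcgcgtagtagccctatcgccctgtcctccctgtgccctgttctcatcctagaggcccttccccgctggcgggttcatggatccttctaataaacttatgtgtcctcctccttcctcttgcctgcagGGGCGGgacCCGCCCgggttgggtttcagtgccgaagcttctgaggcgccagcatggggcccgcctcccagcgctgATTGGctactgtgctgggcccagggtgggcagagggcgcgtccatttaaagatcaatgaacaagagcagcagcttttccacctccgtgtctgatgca
Ebp, chrX:8193463-8193762, minus strand: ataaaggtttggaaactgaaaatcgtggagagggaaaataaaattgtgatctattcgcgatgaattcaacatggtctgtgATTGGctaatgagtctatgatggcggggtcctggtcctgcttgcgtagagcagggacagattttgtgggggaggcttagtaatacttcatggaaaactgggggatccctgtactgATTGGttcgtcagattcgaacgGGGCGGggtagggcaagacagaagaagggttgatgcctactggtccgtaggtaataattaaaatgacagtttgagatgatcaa
Elovl6, chr3:129532136-129532435, plus strand: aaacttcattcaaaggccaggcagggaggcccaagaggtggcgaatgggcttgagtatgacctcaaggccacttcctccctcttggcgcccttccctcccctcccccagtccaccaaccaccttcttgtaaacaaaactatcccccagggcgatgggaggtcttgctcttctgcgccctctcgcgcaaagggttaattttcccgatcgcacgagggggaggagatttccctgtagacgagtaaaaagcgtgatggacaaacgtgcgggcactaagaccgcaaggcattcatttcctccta

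All 14 sterol enzymes with a listed start held CCAAT in at least 1 promoter, and 13 of the 14 held GGGCGG, with Pmvk the exception. Counted over their 17 listed starts, 14 held CCAAT and 14 held GGGCGG, beside 37.4% and 35.7% of the 32851 promoters searched. Those cover non-coding genes as well, count each listed start of a gene once and leave out 1 chromosome. Among the 6 starts of the 5 fatty acid synthesis genes, 3 held CCAAT and 2 held GGGCGG. CACNCCAC was found at 1 of the 17 sterol enzyme starts, that of Hmgcs1, and at 1 of 8 starts of the regulators, that of Insig1, beside 6.24% of the promoters searched. CACGTG was found at 3 of the 17 starts (Dhcr7, Hsd17b7 and Sc5d), beside 7.15% of the promoters searched. Pmvk has another listed start at chr3:89459321-89459620 without any of the 4 motifs. These matches describe letters in a window and are not measured binding sites.

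Levels below are RMA values in log2 units, and each difference subtracts the vehicle level, a value of 1 being 2-fold. Genes were taken as expressed where 1 of the arrays in a comparison reached its own median (5.30 to 5.34), which all 29 did in every comparison. Differences over expressed genes had robust SDs of 0.27 to 0.39 for tamoxifen against vehicle and of 0.15 for 4.5 against 2.5 days of tamoxifen, the smallest of any array pair. The 12-hour array stood apart: 6 of 7 pancreatic acinar markers were at least 2-fold above vehicle there and 6 of 8 squamous markers at least 2-fold below, and the part of these in the 12-hour values was not tested. The proton pump gene Atp4a of parietal cells, at 13.38 in vehicle, and the pepsinogen gene Pgc of chief cells, at 14.28, were both well above the median of that array, and the smooth muscle gene Actg2 was at 12.42 there. In bulk RNA of this kind, fewer cells of a type and less RNA per cell cannot be told apart.

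**Figure D1:**
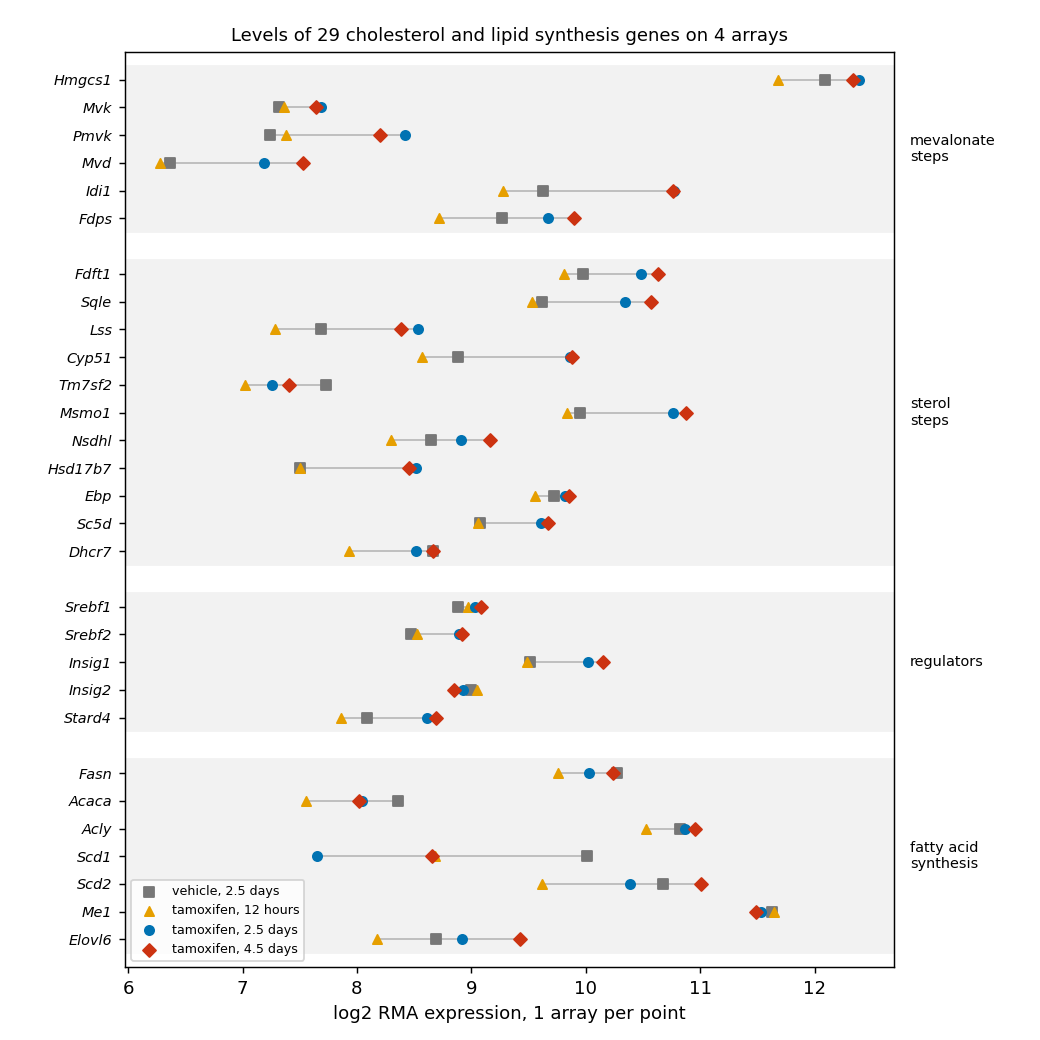
Levels of the 29 genes on the 4 arrays, grouped by role; the x axis is log2 RMA expression, each point is 1 array, and the grey line spans the 4 values. Most sterol enzymes have the 2.5-day and 4.5-day points to the right of vehicle, whereas Scd1 has all 3 tamoxifen points to the left, between 7.65 and 8.68 against 10.01 in vehicle. Levels of different genes cannot be ranked, since they come from different probes.

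Of the 17 sterol enzyme genes, 15 were above vehicle at 2.5 days and 16 at 4.5 days, and 15 were below it at 12 hours. By at least 1.5-fold, 8 and 11 were higher at 2.5 and 4.5 days, beside 9.69% and 10.7% of all expressed genes. Of the 7 fatty acid synthesis genes, 6 were below vehicle at 12 hours, 5 at 2.5 days and 4 at 4.5 days, when Elovl6 was 1.67-fold above it. Counts by sign take in values near 0. Hsd17b7, counted as below at 12 hours, was at -0.003, with 6740 of 12253 expressed genes lower. Dhcr7, counted as above at 4.5 days, was at 0.002, with 6046 of 12303 expressed genes higher. The 17 sterol enzymes had a median difference of -0.16 at 12 hours, 0.54 at 2.5 days and 0.66 at 4.5 days. The 7 fatty acid synthesis genes had medians of -0.52, -0.25 and -0.03 at those times. With each gene read from the probe set of middle absolute difference, their later medians turned to 0.049 and 0.23, and that of the 11 genes from squalene synthesis onward was 0.26 at 2.5 days and 0.28 at 4.5 days. For a gene with 2 probe sets this reading takes the smaller difference, and it takes in dim probe sets. Over all expressed genes the medians were -0.04, 0.02 and -0.005. At 2.5 days 14 of the 17 sterol enzymes lay above every fatty acid synthesis gene, and at 4.5 days 7 did. The genes of a pathway are not replicates of a condition, so these medians carry no test.

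At 12 hours none of the 29 genes was at least 2-fold higher than vehicle and 2, Scd1 and Scd2, were at least 2-fold lower, beside 0.996% higher and 1.92% lower over 12253 expressed genes. At 2.5 days 3 genes, Pmvk, Idi1 and Hsd17b7, were at least 2-fold higher and 1, Scd1, was at least 2-fold lower, beside 3.32% and 1.94% over 12295 genes. With the mean over all probe sets of each gene, the 3 became 2. At 4.5 days the 2 genes at least 2-fold higher were Mvd and Idi1 and the 1 lower was again Scd1, beside 3.8% and 2.72% over 12303 genes. At a threshold of 1.5-fold, 0, 8 and 14 of the 29 genes were higher at 12 hours, 2.5 and 4.5 days, beside 3.37%, 9.69% and 10.7% of all expressed genes. At that threshold 5, 1 and 1 were lower, beside 5.66%, 6.03% and 8.21%. The sterol enzymes made up 8 of the 8 at 2.5 days and 11 of the 14 at 4.5 days.

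**Figure D2:**
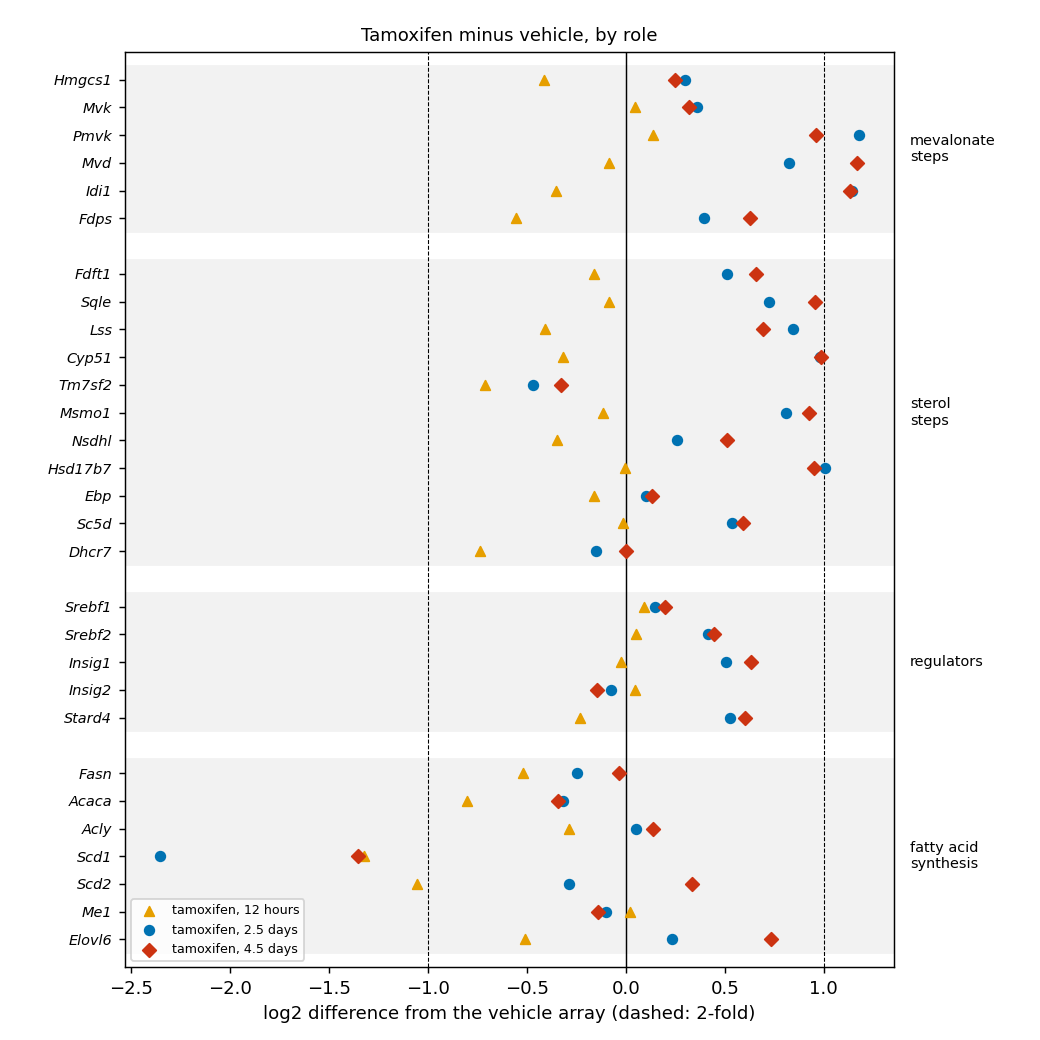
Differences of the 29 genes from the vehicle array at 12 hours, 2.5 and 4.5 days of tamoxifen; the x axis is the log2 difference, each point is 1 array minus the vehicle array, and dashed lines mark 2-fold. Pmvk, Idi1 and Hsd17b7 pass the line to the right at 2.5 days and Scd1 lies at -2.36.

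The mevalonate steps turn acetyl-CoA units into farnesyl diphosphate. All 6 of their genes were above vehicle at 2.5 and 4.5 days, with median differences of 0.61 and 0.79, after -0.22 at 12 hours. Hmgcs1, which makes HMG-CoA, was at 12.09 in vehicle and at 11.67, 12.39 and 12.34 at 12 hours, 2.5 and 4.5 days of tamoxifen. Its 12-hour array was the lowest of the 4, and the later differences were 0.30 and 0.25, the smallest of its 5 probe sets at both times. All 5 probe sets of Hmgcs1 were above vehicle at 2.5 days, and the dimmest of them gave the largest difference, 0.99. Mvk, the mevalonate kinase gene, was at 7.32 in vehicle and at 7.37, 7.68 and 7.64 in that order of times, a difference of 0.36 at 2.5 days.

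Pmvk, which encodes the next kinase, was at 7.24 in vehicle and at 7.38, 8.42 and 8.2 after tamoxifen. The difference at 2.5 days, 1.18 or 2.27-fold, was the highest of the 29 genes on that array, and 265 of the 12295 expressed genes were higher. Pmvk has 1 probe set, so no other reading of it was at hand. Mvd, the decarboxylase that makes isopentenyl diphosphate, was at 6.36 in vehicle and at 6.28, 7.19 and 7.53, and it alone of the 6 was more than 0.3 higher at 4.5 days than at 2.5 days. Its difference at 4.5 days was 1.17 with the probe set used and 0.70 with the other, which is under 2-fold. The other probe set was at 6.98 at 2.5 days and 6.96 at 4.5 days, so it did not show that further rise.

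Idi1 interconverts the isoprenoid diphosphates from which farnesyl diphosphate is built. Its level was 9.63 in vehicle and 9.28, 10.77 and 10.76 after tamoxifen, so both later arrays were high and the 12-hour array was the lowest. The differences of 1.14 and 1.13 at 2.5 and 4.5 days were past 2-fold, and the other probe set gave 1.04 and 1.25. Fdps, the farnesyl diphosphate synthase gene, was at 9.27 in vehicle and at 8.71, 9.67 and 9.90, with the lowest value again at 12 hours. Its difference of -0.56 there was the lowest of the mevalonate genes. The other probe set of Fdps stayed between 2.63 and 2.80, below the array medians, and carried no information.

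The 11 genes from squalene synthesis onward had medians of -0.16, 0.54 and 0.66. All 11 were at or below vehicle at 12 hours, 9 were above it at 2.5 days and 10 at 4.5 days. Fdft1, the squalene synthase gene, was at 9.97 in vehicle and at 9.81, 10.48 and 10.63. Sqle, which encodes squalene epoxidase, an early control point of the sterol steps, was at 9.62 in vehicle and at 9.53, 10.34 and 10.57. Lss, the lanosterol synthase gene, was at 7.69 in vehicle and at 7.28, 8.53 and 8.38. In each of these 3 genes the 12-hour array was the lowest and both later arrays lay above vehicle, by 0.51, 0.73 and 0.84 at 2.5 days. Of the 4 probe sets of Fdft1, 1 near the array median went the other way, with -0.10 at 2.5 days. Another probe set of Lss above the array median gave 0.44 at 2.5 days and 0.28 at 4.5 days, both under 1.5-fold.

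Cyp51, the lanosterol demethylase gene, was at 8.89 in vehicle and at 8.57, 9.87 and 9.87, with differences of 0.98 and 0.99 just under 2-fold on both later arrays. A dimmer probe set of Cyp51 gave 1.09 and 1.13, which is past 2-fold. Msmo1, which oxidises the methyl groups, was at 9.95 in vehicle and at 9.83, 10.76 and 10.88. With the probe sets used, both genes were thus higher on the later arrays than on either of the others. The other probe set of Msmo1, below the median of every array, gave 0.28 and 0.11 on the later arrays. Nsdhl, a dehydrogenase that acts with Msmo1, was at 8.65 in vehicle and at 8.30, 8.91 and 9.16, with a smaller difference of 0.26 at 2.5 days and 0.51 at 4.5 days. Hsd17b7, the keto reductase of that same complex, was at 7.51 in vehicle and at 7.5, 8.51 and 8.46. Its difference at 2.5 days, 1.01, was the one nearest to the 2-fold line from above, and 2 other probe sets above the array median gave 0.99 and 0.70.

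Ebp, the tamoxifen-binding sterol isomerase, differed little from vehicle. It was at 9.72 in vehicle and at 9.56, 9.82 and 9.85 after tamoxifen, differences of -0.16, 0.10 and 0.13. The range over the 4 arrays was within 0.29 from lowest to highest, and at 2.5 days 5065 of 12295 expressed genes were higher. The later differences of Ebp were below the robust SD of 0.15 seen between the closest pair of arrays, and it has 1 probe set.

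Genes of other late steps varied. Sc5d, a sterol desaturase gene, was at 9.07 in vehicle and at 9.06, 9.61 and 9.67, a difference of 0.54 at 2.5 days, but another of its probe sets, also above the array median, gave -0.46. Sc5d therefore has no settled direction here. Dhcr7, the reductase of the final step, was at 8.66 in vehicle and at 7.93, 8.51 and 8.67. Only its 12-hour array stood apart, at -0.74, with 433 of 12253 expressed genes lower. Tm7sf2, which encodes a sterol reductase acting just after Cyp51, was at 7.73 in vehicle and at 7.02, 7.26 and 7.40. It was the 1 sterol enzyme below vehicle on all 3 tamoxifen arrays, by 0.71, 0.47 and 0.33 in size, each read from a single probe set.

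None of the 5 regulators and carriers was past 2-fold at any time, and their medians were 0.04, 0.42 and 0.45. Srebf2 was at 8.47 in vehicle and at 8.52, 8.89 and 8.92, and its other probe set gave 0.16 and 0.25 at 2.5 and 4.5 days in place of 0.42 and 0.45. Srebf1 was at 8.88 in vehicle and at 8.97, 9.03 and 9.08, within 0.20 of vehicle throughout. It has 1 probe set. Insig1, itself a known target of SREBPs, was at 9.51 in vehicle and at 9.49, 10.02 and 10.15. Insig2 was at 9.0 in vehicle and at 9.04, 8.92 and 8.85, so of the pair Insig1 was higher on the later arrays, by 0.51 and 0.63, while Insig2 lay at -0.08 and -0.15. Stard4, which encodes a cytosolic sterol carrier, was at 8.09 in vehicle and at 7.86, 8.62 and 8.69, and its 3 probe sets gave 0.28 to 0.92 at 2.5 days.

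Fatty acid synthesis genes were the ones most below vehicle at 12 hours, with 6 of 7 lower. Of these 3 were lower by at least 1.5-fold, beside 5.66% of all expressed genes. Acly, which splits citrate into the acetyl-CoA used by both pathways, was at 10.82 in vehicle and at 10.53, 10.87 and 10.96. Acaca, the acetyl-CoA carboxylase gene, was at 8.36 in vehicle and at 7.56, 8.05 and 8.02. Fasn, the fatty acid synthase gene, was at 10.27 in vehicle and at 9.75, 10.03 and 10.24. All 3 were lowest at 12 hours, Acaca by -0.81, Fasn by -0.52 and Acly by -0.29, and Acaca alone lay more than 0.3 below vehicle on the later arrays. Me1, the malic enzyme gene that supplies NADPH, was at 11.62 in vehicle and at 11.65, 11.53 and 11.48, the narrowest range of the 7. Elovl6, an elongase of fatty acids, was at 8.69 in vehicle and at 8.18, 8.92 and 9.43. It went furthest above vehicle of this group, with 0.74 at 4.5 days, while its 2 dimmer probe sets gave 0.37 and -0.14.

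The stearoyl-CoA desaturases put a double bond into saturated fatty acids, and the paralogs Scd1 and Scd2 parted. Scd1 was at 10.01 in vehicle and at 8.68, 7.65 and 8.65 after tamoxifen, so the vehicle array was the highest and the 2.5-day array the lowest. The difference of -2.36 at 2.5 days, 5.12-fold lower, was the largest in size of the 29 genes, and 27 of 12295 expressed genes were lower still. At 12 hours and 4.5 days Scd1 differed by -1.32 and -1.35. A second, dimmer probe set of Scd1, at 5.07 in vehicle, gave -0.39, -0.24 and 0.63 at the 3 times, so the calls rest on the bright probe set and the direction at 4.5 days turns with the other. Scd2 was at 10.67 in vehicle and at 9.62, 10.38 and 11.01. It was lower than vehicle by 1.06 at 12 hours and higher by 0.34 at 4.5 days, and its second probe set gave -0.98 and 0.97.

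**Figure D3:**
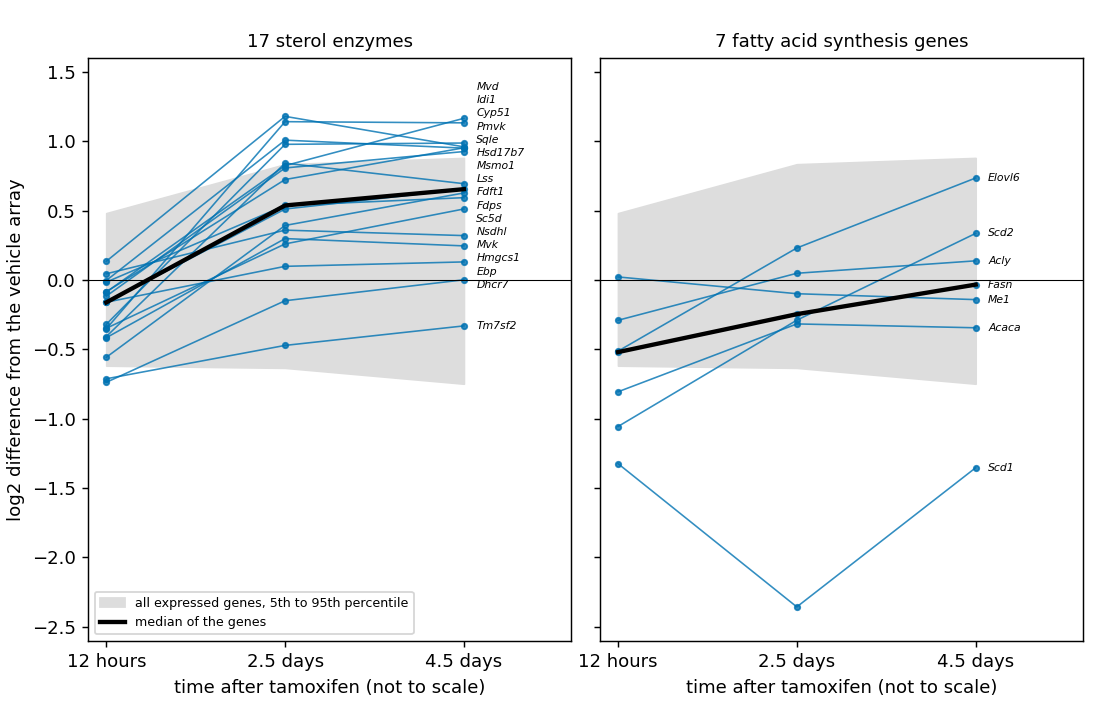
Differences from the vehicle array over time for the 17 sterol enzymes (left) and the 7 fatty acid synthesis genes (right); thin lines are genes, named in the order of their 4.5-day values, the thick line is their median, and the grey band spans the 5th to 95th percentile of all expressed genes. The sterol median lies at -0.16, 0.54 and 0.66, and Scd1 falls outside the band at all 3 times.

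At 2.5 days all 17 sterol enzymes were above their 12-hour level, by 0.24 for Tm7sf2 to 1.49 for Idi1, with a median of 0.81 beside 0.06 over all expressed genes. Other probe sets that reached an array's median had the opposite sign for Fdft1, at -0.50, and for Sc5d, at -0.06. Past 2-fold at 2.5 days relative to 12 hours were 5 of the 29 genes on the higher side (Pmvk, Idi1, Lss, Cyp51 and Hsd17b7) and 1, Scd1, on the lower side, beside 2.58% and 0.655% over 12205 genes. The dimmer probe set of Scd1 had the opposite sign in this step, 0.14 in place of -1.03. At 1.5-fold 16 were higher, beside 7.52%, and 1 lower, beside 2.28%. This step rests on the 12-hour array, on which acinar and squamous markers stood apart, and the part of that in the step was not tested. From 2.5 to 4.5 days the sterol enzymes differed little, with a median of 0.06 and values between -0.22 for Pmvk and 0.34 for Mvd. The other probe set of Mvd gave -0.02 in that step.

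The desaturases and the elongase were the genes of the 29 that differed most between 4.5 and 2.5 days. Scd1 was higher at 4.5 days than at 2.5 days by 1.0, the 1 gene of 29 past 2-fold, beside 0.248% of 12117 genes higher and 0.182% lower. Scd2 was higher by 0.63, with 87 genes higher still, and Elovl6 by 0.50. The dimmer probe set of Scd1 gave 0.87 and the second one of Scd2 gave 0.89, so these readings of each gene had the same sign in this step, and the dimmest probe set of Scd2, below the median of every array, gave 0.16. At 1.5-fold 2 of the 29 genes were higher, Scd1 and Scd2, beside 0.933%, and 0 lower, beside 1.17%.

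Other genes of lipid metabolism gave a reference for the 29. Of 42 genes in 5 lists, 36 were measured, with a median difference of 0.04 at 2.5 days. Of the 35 that were expressed, 0 were at least 2-fold higher than vehicle then and 1 at least 2-fold lower. The shares over all expressed genes were 3.32% and 1.94%, so these counts are near the background. The 4 measured genes of the isoprenoid branches, which use the mevalonate products for other ends, had medians of -0.08, 0.04 and -0.06, with Fntb, a subunit of protein farnesyltransferase, at 0.17, Coq2 of ubiquinone synthesis at 0.06 and Dhdds of dolichol synthesis at 0.01 at 2.5 days. Genes that process SREBPs had medians of -0.07, 0.11 and -0.08 over 5 measured genes. Mbtps2, the protease that makes the second cut in the SREBP precursor, was at 0.41 and 0.53 on the later arrays, while Scap, the SREBP escort, was at 0.02 and -0.12 and Ufd1 at -0.06 and -0.13. Neither of these lists had a gene past 1.5-fold in either direction at any time against vehicle.

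Genes of sterol efflux and storage likewise lay near vehicle, with medians of -0.08, -0.01 and -0.02 over 8 genes and none past 1.5-fold. Abca1, the cholesterol efflux transporter, was at 0.47 at 2.5 days, the oxysterol-binding protein gene Osbp at -0.35, and Nr1h3, which encodes the oxysterol receptor LXR alpha, at -0.29. The 4 measured genes of NADPH supply were all above vehicle at 2.5 and 4.5 days, with medians of 0.31 and 0.40. Idh1 led them with 0.51 and 0.72, followed by Pgd with 0.36 and 0.46 and Tkt with 0.27 and 0.34.

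Most lipogenic genes outside the 7 were lower too at 12 hours. Of 15 further genes of fatty acid and triglyceride synthesis, 14 were below vehicle at 12 hours, with a median of -0.29, and the medians at 2.5 and 4.5 days were -0.08 and 0.01. Thrsp, a lipogenic regulator, was at 7.66 in vehicle and at 6.37, 6.31 and 6.30, at least 2-fold lower on all 3 arrays. Gpam, which starts triglyceride synthesis, was at 9.90 in vehicle and at 9.01, 8.92 and 8.76, and Acacb, the mitochondrial acetyl-CoA carboxylase gene, was at 8.81 in vehicle and at 8.21, 7.99 and 7.88. These 3 genes were low on every tamoxifen array, whereas Fasn and Acly were back near vehicle at 4.5 days. Of the 15 genes, 6 were above vehicle at 2.5 days and 8 at 4.5 days. Elovl5, an elongase of polyunsaturated fatty acids, was the highest of them, with 0.54 and 0.78 at 2.5 and 4.5 days.

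Markers of cell types differed between these arrays as well. Of 7 mitotic genes all 7 were at least 2-fold above vehicle at 2.5 and 4.5 days, with a median of 1.67 and 1.68, after -0.85 at 12 hours, and the log2 of their summed signal was 10.73 in vehicle and 10.12, 12.17 and 12.23 after tamoxifen. The sterol enzyme median was -0.16 at 12 hours, much nearer to vehicle than the mitotic one, and 0.54 and 0.66 later. Tm7sf2 was below vehicle at all 3 times and Ebp stayed near it. The part of dividing cells in the sterol enzyme values was not tested. Of 9 parietal genes, 7, 8 and 8 were at least 2-fold lower at 12 hours, 2.5 and 4.5 days, with log2 summed signals of 15.16 in vehicle and 14.19, 13.64 and 13.90. Chief cell genes at least 2-fold lower numbered 1, 4 and 5 of 6, with log2 summed signals of 15.80 in vehicle and 15.68, 14.73 and 13.35. Scd1, read from its bright probe set, and Thrsp were below vehicle on all 3 tamoxifen arrays, as were the parietal, chief and smooth muscle summed signals. The dimmer probe set of Scd1 was above vehicle at 4.5 days. The part of any of these cell types in Scd1 and Thrsp was not tested. Of 6 mucous neck and metaplasia markers 0, 2 and 3 were at least 2-fold higher, and of 4 surface mucous markers none was past 2-fold at any time.

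Adipocytes, which express Scd1, Fasn and Thrsp strongly, were gauged with 6 measured markers. Adipoq, the adiponectin gene, was at 8.04 in vehicle and at 7.28, 6.97 and 6.99, whereas Fabp4 was at 11.33 in vehicle and at 11.50, 11.06 and 11.19, and Lep was below the median of every array. Plin4 differed from vehicle by 0.68, 0.35 and -0.28 and Cidec by 0.46, 0.26 and 0.30, while Retn differed by -0.13, -0.40 and -0.37. The log2 summed signal of the 6 was 11.66 in vehicle and 11.82, 11.41 and 11.46. Medians of the list were 0.20, -0.21 and -0.24, and its part in the lower lipogenic genes was not tested. Smooth muscle markers were lower too, with medians of -0.39, -0.69 and -0.65 and log2 summed signals of 15.04 in vehicle and 14.66, 14.42 and 14.45. Of the 4 measured hepatocyte markers 1 was expressed, Ttr, at 12.53 in vehicle and at 10.98, 10.52 and 10.13, with Alb at 4.54 to 5.21, below the median of every array.

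**Figure D4:**
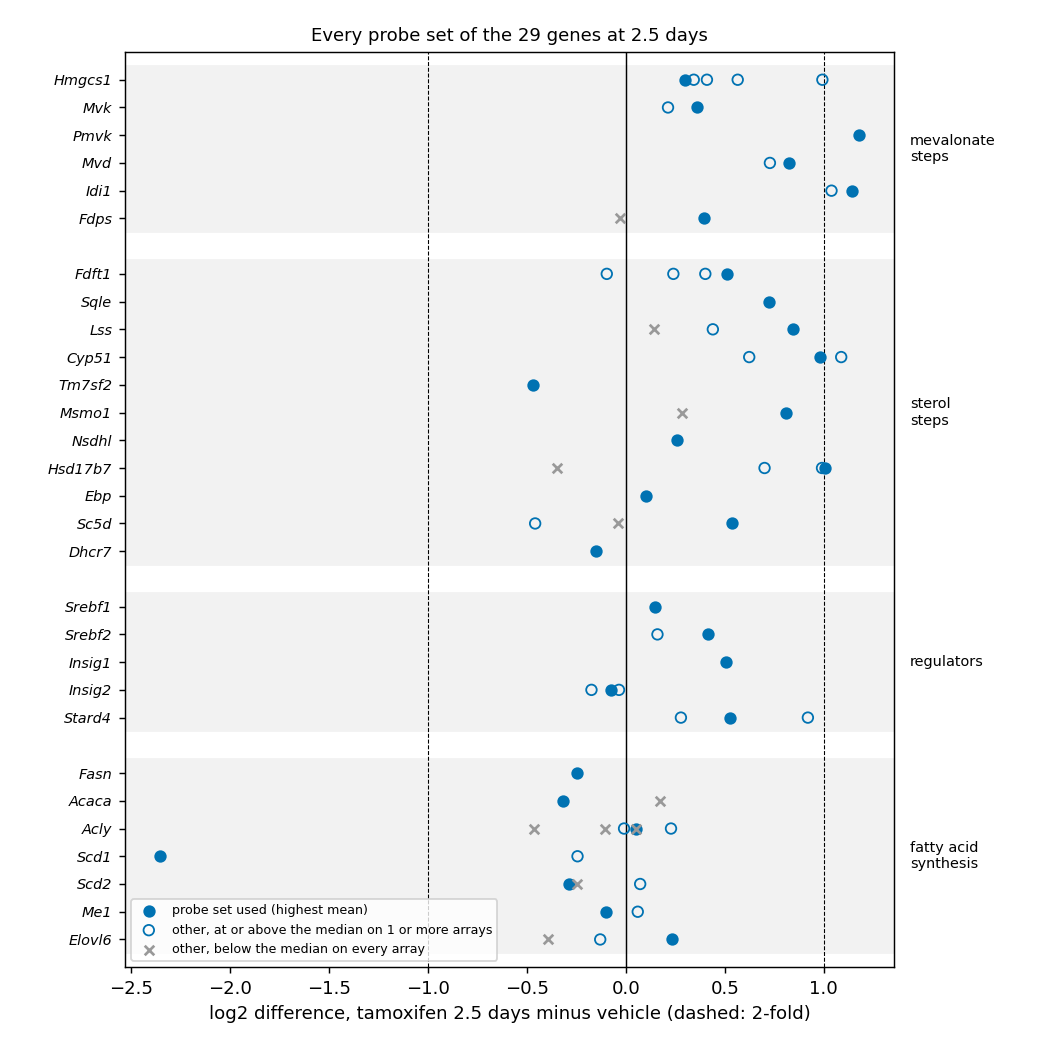
Every probe set of the 29 genes at 2.5 days, as the log2 difference of tamoxifen minus vehicle; filled points are the probe sets used, open points are others at or above the array median on 1 or more arrays, and crosses are below it on every array. Readings of 1 gene on both sides of 0 among the points are seen for Fdft1, Sc5d, Acly, Scd2, Me1 and Elovl6, and the 2 of Scd1 lie at -2.36 and -0.24.

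The 29 genes had 67 probe sets, of which 56 reached the median of an array, and 9 genes had 1 probe set each. Of 17 genes with 2 or more probe sets at that level, 6 had readings of opposite sign at 2.5 days and 4 at 4.5 days (Fdft1, Sc5d, Scd1 and Me1). The sterol enzymes with opposite signs at either of these times were Fdft1 and Sc5d, while Hmgcs1, Mvk, Mvd, Idi1, Lss, Cyp51 and Hsd17b7 had all such readings above vehicle at both. Readings at 12 hours disagreed in sign for 8 of the 17, namely Hmgcs1, Mvk, Mvd, Fdft1, Cyp51, Hsd17b7, Srebf2 and Me1. Between 4.5 and 2.5 days they disagreed for 7, namely Hmgcs1, Mvk, Mvd, Idi1, Cyp51, Hsd17b7 and Me1.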

How the data were processed

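Per the labels' protocols, total RNA pooled from 3 mice per condition was amplified, labelled with biotin and read on 1 array each, 4 in all. The deposited log2 values of 45101 probe sets were made by the authors, and the submitters' processing notes name Partek and RMA (versions: not given in the sources used here). This method corrects background, equalises the arrays by quantiles and sums up the probes, so a shift shared by most genes cannot be seen and differences of dim genes are compressed. The log base was inferred from the values, 2.06 to 14.85.

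The 64 control probe sets were dropped. Of the rest 34945 had exactly 1 gene symbol in the platform annotation, which gave 18193 genes. Each was read from the probe set with the highest mean. Differences were counted at 2-fold and 1.5-fold. With 1 array per group no test was possible, and the number of arrays limits the precision. Robust SDs are scaled median absolute deviations over expressed genes. Python 3.11.15 with pandas 2.3.3 was used, and counting was tested on simulated arrays. The 29 genes are the members that a list named, and all are described. Of each other pathway list, up to 3 genes with the largest absolute difference from vehicle at any time are named, and Elovl5 and the marker genes were named after their values were seen. The members and lists were chosen with earlier results of these data known. Ufd1l of the lists was read as Ufd1, its current symbol. The alternatives tried were other probe set rules, centring, filters and thresholds. Proteins of the genes were not compared here.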

Additional observations from a re-analysis of the deposited data

Results flagged for a closer look

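For 8 genes the difference from the single vehicle array had opposite signs at 12 hours and at a later time, each at least 0.299 in size, which is the robust SD of the closest array pair multiplied by 2. That bar is low, since the robust SDs against vehicle were 0.35 at 2.5 days and 0.39 at 4.5 days. These differences between times were not tested, since each time is 1 array. From 12 hours, the 2.5-day level was higher by 0.71 for Hmgcs1, 1.49 for Idi1, 0.95 for Fdps, 1.25 for Lss and 1.30 for Cyp51. The 4.5-day level was higher than the 12-hour level by 1.49 for Idi1, 1.19 for Fdps, 1.10 for Lss, 1.31 for Cyp51, 0.86 for Nsdhl, 1.39 for Scd2 and 1.25 for Elovl6. All of these rest on the 12-hour array, and for Hmgcs1 and Cyp51 a probe set at or above the median of an array had the opposite sign at 12 hours.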

How the results depend on the processing

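No paired analysis was possible because each group is 1 array. A median was taken as moved if it shifted by more than the robust SD of 0.15 of the closest array pair, a count if it changed by more than 1.5 times. By this rule no count or median moved with filters at the 75th percentile or none, or with expressed genes alone. None moved with quantiles set again over the 3 arrays other than the 12-hour one, an alternative chosen after seeing the data. A change from 3 to 2 is not a move by this rule. Genes at least 2-fold higher at 2.5 days numbered 2 in place of 3 with those quantiles, with either other probe set rule and with centring.

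With the mean over all probe sets, at least 2-fold lower at 12 hours were 0 genes. At 4.5 days 1 was higher and 0 lower. At 2.5 days against 12 hours 3 were higher and 0 lower, and at 4.5 days against 2.5 days 0 were higher. The sterol step medians became 0.26 at 2.5 days and 0.39 at 4.5 days, and the mevalonate median 0.75 at 2.5 days against 12 hours. This mean takes in dim probe sets.

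Each gene was also read from the probe set whose absolute difference was the median one, or the smaller of the middle pair. For a gene with 2 probe sets, such as Scd1, this is always the smaller difference. The rule takes in dim probe sets too, such as that of Acaca below the median of every array. Read so, 0 genes were at least 2-fold lower at 12 hours, at 2.5 days, at 4.5 days and at 2.5 days against 12 hours. At 4.5 days 1 was higher, and at 4.5 days against 2.5 days 0 were. Mevalonate medians became -0.020 at 12 hours, 0.60 at 4.5 days and 0.67 at 2.5 days against 12 hours. Sterol step medians became 0.26, 0.28 and 0.52 at 2.5 days, 4.5 days and 2.5 days against 12 hours, and regulator medians 0.16, 0.25 and 0.17. Fatty acid synthesis medians became 0.049 at 2.5 days and 0.23 at 4.5 days, the opposite sign to the values reported. Scd1 turned to 0.63 at 4.5 days, also its highest probe set, and the lowest probe set of Hsd17b7 gave -0.35 at 2.5 days, below the median of every array.

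Centring on expressed genes shifted the arrays by 0.064 in 12 hours against vehicle, leaving 1 gene lower there, and by 0.12 in size in 2.5 days against 12 hours, leaving 3 higher. At 1.5-fold 5 were lower at 12 hours, 8 and 14 higher at 2.5 and 4.5 days, 16 higher at 2.5 days against 12 hours and 2 at 4.5 days against 2.5 days. The cause of these moves was not tested.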
